A study of Mus musculus with 26 samples.

Results

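All CD4+CD8+ double positive (DP) cells sorted outside the thymus were set against DP cells sorted from the thymus, over every gene of the table. The extrathymic group was the 4 pools from mediastinal adipose tissue together with the 4 pools from the aortic arch, and the reference was the 4 thymus pools. All 12 pools of the study were therefore used, and each pool was 1 replicate. Every pool held tissue from 5 female C57BL/6J mice, a wild-type inbred strain, aged 8 weeks, with no treatment, transgene or allele named for any group. Viable CD4+CD8b+TCR- cells were sorted, 400 at a time, and polyadenylated RNA of 200 cells per library was amplified for 18 PCR cycles. The libraries numbered 9 from thymus, 8 from adipose tissue and 9 from arch, and those of a pool were combined into 1 column. The labels do not say whether pools with the same number in different tissues came from the same mice. Enzymatic digestion is described for arch and adipose tissue only, so tissue, digestion and handling cannot be told apart in any result below.

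DP cells are the stage of thymocyte development at which the T cell receptor alpha chain gene is rearranged. Rag1 and Rag2 encode the recombinase, Dntt adds untemplated nucleotides at the joints, and Satb1, Tcf7, Lef1 and Bcl11b are transcription factors that shape or sustain the stage. Heat shock genes, the AP-1 and other immediate early genes, and the targets of cyclic AMP (cAMP) signalling are known to be induced quickly by stress and by receptor signals. The labelled cell type was checked on 8 DP genes (Cd4, Cd8a, Cd8b1, Cd3e, Rag1, Rag2, Ptcra and Dntt), and all 8 had reads in all 12 pools. CD4 and CD8b protein were also the basis of the sort.

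Recovered reads per pool ranged from 11577253 to 34599519, and 9091 to 11894 genes were detected. Values below are normalised read counts, in which 1 read is worth 0.566 to 1.90 depending on the pool. Markers of 15 other cell types were summed in CPM, reads scaled to a common total for each pool, and 3 pools stood out. In arch pool 4 the sum over all 10 fibroblast genes was 6070, where the other 7 extrathymic pools gave 59.1 to 390 and the thymus pools 88.9 to 298. Without Gsn, the most abundant of them, the sums were 0 to 3.83 in the thymus, 3830 in arch pool 4, 181 in arch pool 2, 116 in adipose pool 1, 22.7 in arch pool 1 and at most 0.168 in the other 4 extrathymic pools. Smooth muscle markers, with 9 of 10 genes in the table, reached 1930 in arch pool 2 and at most 3.31 in the thymus. Macrophage markers, with 11 of 12 in the table, gave 980 for arch pool 2, 254 for adipose pool 1 and 0.131 to 12.5 for the thymus. B cell markers, with 9 of 12 in the table, reached 1510 in adipose pool 1 and 73.5 to 214 in the thymus. None of the 15 sums passed an exact permutation test after Benjamini-Hochberg adjustment (8 pools against 4, smallest possible unadjusted p = 0.00404), and only smooth muscle had an unadjusted p under 0.05 (p = 0.0404, exact permutation test). Without those 3 pools, 197 of the 228 genes shifted upward alike and 90 of the 94 shifted downward alike were still called. Fewer cells of a type and less RNA per cell cannot be told apart in such bulk libraries.

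The first question was which genes differed between extrathymic and thymic DP cells. Of 9106 tested genes, 334 were higher outside the thymus (3.67% of those tested) and 122 were lower (1.34%), 456 in all (5.01%), by limma on log2 values at a Benjamini-Hochberg adjusted p under 0.05. Genes were then asked to move alike at both sites. Such a gene was called, had all 8 extrathymic pools on the same side of all 4 thymus pools, and had a smaller site shift of at least 0.5 times the larger. By these criteria 228 genes rose alike (2.5% of the tested genes) and 94 fell alike (1.03%). They made up 68.3% of the genes called higher and 77% of those called lower. Separation of the pools alone, without the test, held for 277 genes upward (3.04%) and 209 downward (2.3%). A normalisation to a common total gave 283 higher and 165 lower genes, and limma-voom 246 and 219. The median log2 change over all tested genes was -0.126 as reported, -0.219 with a common total and 0.00027 with TMM scaling. P-values measure the spread between pools, and both site shifts are taken against the same 4 thymus pools, so a matching direction at the sites is not independent evidence.

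The upward shifts had the larger median. Among the 228 genes that rose alike the median log2 change was 2.05, with site medians of 2 in adipose tissue and 2.08 in arch, and 122 of them rose by at least 2 log2 units. In 8 of the 228 genes no thymus pool had a read, and in 22 no thymus pool reached the minimum of 100 used for testing. These 22 were tested through the extrathymic pools alone, so their p-values are no support. Among them were Fosl2, Sik1, Gem, Per1, Grn, Sgip1, Hspa1a, Mpzl2 and Hmox1. The same holds for Hspa1b, Rgs1 and Rora, which had no thymus read and were called but not shifted alike. Shares of list members called higher below count such genes. The 3.67% over all genes counts them too, and 178 of the 9106 tested genes had no thymus pool at the minimum. Among the 94 genes that fell alike the median was -1.48, with -1.39 in adipose tissue and -1.6 in arch, and 19 fell by 2 log2 units or more. None of the 94 fell by 4 or more, while 38 of the 228 rose by that much. Tmprss4, a membrane serine protease, was the only gene of the 94 without a read in any extrathymic pool. In 4 of the 94 no extrathymic pool reached the minimum, so these were tested through the thymus pools alone.

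**Figure D1:**
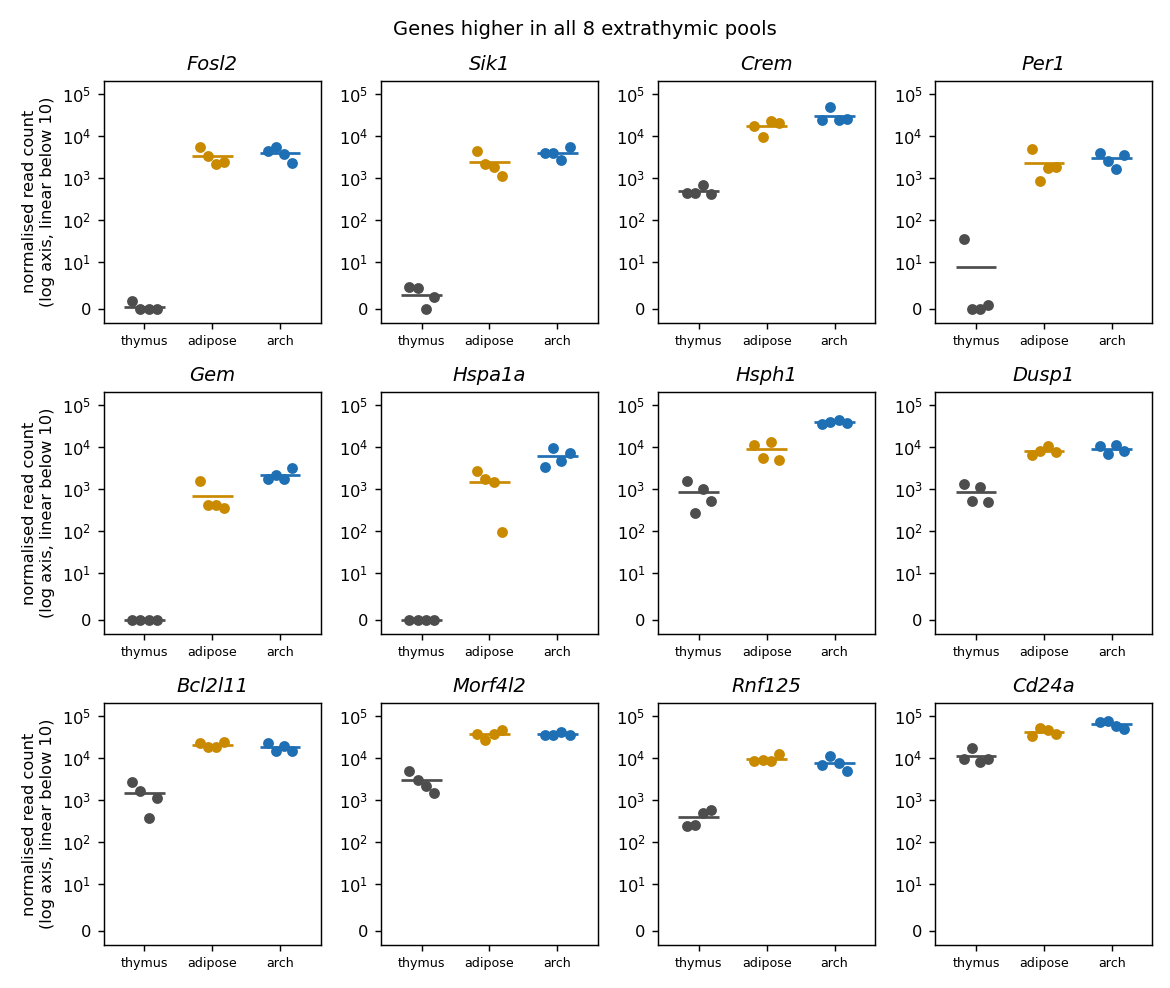
Normalised read counts of 12 genes that rose alike, one point per pool (4 thymus, 4 adipose tissue, 4 arch) with a line at each group mean, on a symmetric log axis that is linear below 10. In every panel the 8 extrathymic points lie above the 4 thymus points, and for Fosl2, Sik1, Gem and Hspa1a the thymus points lie at or below 10.

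Part of the list of AP-1 and other immediate early genes rose outside the thymus. Of 35 tested members 13 rose (37.1%, against 3.67% of all genes) and 0 fell, with a list median of 1.18 against -0.126 over all genes, and 9 of the 13 rose alike at both sites. Between 6 and 16 members rose over 26 alternative fits, and at most 1 fell. Fosl2, a Fos family subunit of AP-1 (chr5:32135801-32157842, GRCm38), had 1.70 in thymus pool 1, which is 3 reads, and 0 in the other 3. Outside the thymus it ranged from 2117 to 5495, with a median of 3520. The ratio of the group means was 8576, with a 95% interval of 2930 to 41600 that covers counting error of the thymus reads only. Fosl2, counted among the 13, was tested through the extrathymic pools alone, so its adjusted p of 4.08e-08 is no support. Its shifts of 7.25 in adipose tissue and 7.54 in arch were close, with an arch minus adipose difference of 0.29 (95% interval -1.01 to 1.59).

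Junb, another AP-1 subunit, measured 652, 187, 1154 and 1058 in the thymus pools and from 4926 to 15460 outside, with a median of 9675. It rose by 3.72 ± 0.42 log2 units (SE, adjusted p = 1.18e-05). The 4 adipose pools (4926 to 8891) all lay below the 4 arch pools (10460 to 15460), but the site difference of 1.07 did not pass adjustment (adjusted p = 0.424). Dusp1, a phosphatase that inactivates MAP kinases, measured 1289, 510, 1106 and 487 in the thymus and 6460 to 11000 outside, with a median of 8057. The groups did not overlap, and Dusp1 rose by 3.41 ± 0.29 (adjusted p = 2.66e-07), with nearly equal shifts of 3.33 and 3.48. Fos rose by 3.57 ± 0.76 (adjusted p = 0.00715) and Nr4a1, an orphan nuclear receptor induced by receptor signals, by 4.87 ± 0.88 (adjusted p = 0.00163). Neither was called by edgeR (adjusted p = 0.0942 and 0.0841). Ier2, Klf6, Dusp5 and Ppp1r15a were the other members that rose alike, by 2.04, 2.13, 2.93 and 3.74. Nr4a2, Dusp10, Klf2 and Klf4 were called higher but did not meet the criteria of a like shift.

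The cAMP list included the gene with the smallest p of all genes shifted alike. Of 32 tested members 9 rose (28.1%, against 3.67% of all genes) and 0 fell (1.34% of all genes), with a median of 0.47, and 8 rose alike. The count stayed between 8 and 10 over the 26 alternative fits. Sik1, Gem and Rgs1, counted among the 9, were tested through the extrathymic pools alone, so their p-values are no support. Crem encodes a cAMP-responsive transcription factor with activating and repressing isoforms. It measured 423, 446, 663 and 412 in the thymus pools and 9139 to 47580 outside, with a median of 22720. The lowest extrathymic pool, adipose pool 2, was far above the highest thymus pool, thymus pool 3. Crem rose by 5.43 ± 0.31 (adjusted p = 2.27e-09), by 5.03 in adipose tissue and 5.83 in arch. Sik1, a kinase induced by cAMP that restrains the CREB coactivators (chr17:31844250-31855804), measured 4.53, 4.49, 0 and 2.48 in the thymus and 1089 to 5249 outside, with a median of 3250. It rose by 6.95 ± 0.59 (adjusted p = 2.66e-07).

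Gem, a small GTP-binding protein (chr4:11704457-11714752), had no read in any thymus pool and 342 to 3080 outside, with a median of 1630. Against a floor of 3 reads in each thymus pool it was at least 528-fold higher (adjusted p = 0.000127). Gem was tested through the extrathymic pools alone, so this p-value is no support. All 4 arch pools (1735 to 3080) lay above all 4 adipose pools (342 to 1525), but the site difference was not called (adjusted p = 0.459). The phosphodiesterases that break down cAMP also rose. Pde4d measured 1008, 675, 775 and 168 in the thymus and 3853 to 10500 outside, and rose by 3.69 ± 0.39 (adjusted p = 4.7e-06). Pde3b rose by 3.43 ± 0.49 and Pde4b by 1.43 ± 0.24. Prkar1a, a regulatory subunit of protein kinase A, rose by 1.19 ± 0.21, and Rgs2, a regulator of G protein signalling, by 2.94 ± 0.36. Rgs1, the ninth member called, had no thymus read and was 0 in arch pool 4, so its pools overlapped; its call was lost when any thymus pool was left out (adjusted p 0.0681 to 0.076).

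Promoter sequence was read for the genes shifted alike, since several of them belong to the cAMP and stress lists. The windows were RefSeq promoters (GRCm38.p6, 250 bases before to 50 after the start), matched for 168 of the 228 genes that rose alike, 69 of the 94 that fell alike and 6642 of the 9106 tested. The full cAMP response element (CRE), TGACGTCA, reads the same on both strands. It was present in 16 of the 168 promoters of genes that rose alike (9.52%), in 1 of the 69 that fell alike (1.45%), in 4.19% of tested genes and in 2.03% of all 27025 promoters. A heat shock element of 3 units, GAANNTTCNNGAA on either strand, was in 3 of 168 (1.79%), 1 of 69 (1.45%), 0.62% of tested genes and 0.66% of all promoters. The AP-1 motif TGANTCA, which cannot lie inside either of the others, was in 5.95% of the promoters that rose alike, 8.7% of those that fell alike and 5.15% of tested genes. Among tested list members with a promoter, the CRE was in 1 of 22 of the cAMP list (4.55%) and 4 of 29 of the AP-1 list (13.8%). Of the 9 cAMP genes called higher only 4 had a promoter window. Crem, Sik1 and Gem had none, so the CRE could not be looked for in them. The AP-1 motif was in 2 of 29 of the AP-1 list (6.9%), and in 0 of the 12 called higher. The heat shock element was in 3 of 26 of the cytosolic chaperone list (11.5%). These shares describe letters in a window and were not tested. The following 5 stretches, 5′ to 3′ on the gene's strand, show the CRE in capitals in promoters of genes that rose alike and whose stretch overlaps no annotated exon. They are Zfand2a at chr5:139484569-139484656 (minus strand), S1pr2 at chr9:20976927-20977014 (minus), Ppp1r15a at chr7:45526269-45526320 (minus), Dusp1 at chr17:26508568-26508655 (minus) and Tubb2a at chr13:34078020-34078107 (minus).
Zfand2a: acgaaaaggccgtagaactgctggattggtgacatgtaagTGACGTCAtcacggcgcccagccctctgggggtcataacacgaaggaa
S1pr2: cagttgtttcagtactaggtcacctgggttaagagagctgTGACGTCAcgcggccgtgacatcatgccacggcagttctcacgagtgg
Ppp1r15a: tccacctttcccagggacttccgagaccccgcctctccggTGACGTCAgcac
Dusp1: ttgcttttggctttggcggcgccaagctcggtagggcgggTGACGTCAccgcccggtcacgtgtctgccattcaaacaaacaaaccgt
Tubb2a: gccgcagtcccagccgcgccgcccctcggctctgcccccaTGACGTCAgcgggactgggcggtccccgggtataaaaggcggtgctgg

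The genes behind these stretches were spread in size. Zfand2a, a zinc finger protein induced by heat shock, rose by 5.02 ± 0.82 (adjusted p = 0.000576), and S1pr2, a receptor for sphingosine 1-phosphate, by 4.06 ± 0.84 (adjusted p = 0.006). Neither was called by edgeR (adjusted p = 0.113 and 0.336). Ppp1r15a, which directs dephosphorylation of the initiation factor eIF2 alpha, rose by 3.74 ± 0.74 (adjusted p = 0.00385; edgeR 0.0823). The heat shock element is shown, again in capitals, in Dnajb6, which rose, and in Ccnd3, which fell. Dnajb6 lies at chr5:29735844-29735872 (plus strand), inside an annotated exon, and Ccnd3 at chr17:47593242-47593334 (plus).
Dnajb6: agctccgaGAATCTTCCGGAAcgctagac
Ccnd3: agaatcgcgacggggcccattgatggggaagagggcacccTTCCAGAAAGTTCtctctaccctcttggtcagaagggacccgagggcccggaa

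Part of the cytosolic chaperone list rose outside the thymus. Of 32 tested chaperones and cochaperones 11 rose (34.4%, against 3.67%) and 0 fell, with a median of 1.15, but only 4 of the 11 rose alike. The site medians of the list were 0.725 in adipose tissue and 1.32 in arch, and 5 to 15 members rose over the alternative fits. Hspa1a, an inducible HSP70 gene (chr17:34969190-34972156), had no thymus read. Outside it measured 2680, 1724, 1441 and 93.6 in the adipose pools and 3340, 9579, 4565 and 7202 in the arch pools. Against the floor of 3 reads it was at least 1420-fold higher (adjusted p = 7.93e-05), but limma-voom did not call it (adjusted p = 0.196). Its neighbour Hspa1b is nearly identical, and 50-base reads from the pair may be split between them. Hspa1b also had no thymus read, and its adipose pools included a 0. Both genes were tested through the extrathymic pools alone, so their p-values are no support.

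Hsph1, an HSP110 chaperone, measured 1522, 272, 990 and 519 in the thymus, 4803 to 13230 in adipose tissue and 35550 to 44530 in arch. The 3 tissues did not overlap. Hsph1 rose by 4.64 ± 0.58 (adjusted p = 3.6e-05), by 3.49 in adipose tissue and 5.80 in arch, and was the only gene shifted alike with a called site difference (2.31, adjusted p = 0.0276). Its call against thymus was lost with limma-voom (adjusted p = 0.0939). Dnajb6, a J-domain cochaperone whose heat shock element is printed above, measured 4839, 6928, 2065 and 4275 in the thymus and 12380 to 21610 outside, and rose by 1.98 ± 0.26 (adjusted p = 7.12e-05). Fkbp4, an HSP90 cochaperone, completed the 4 with 1.79 ± 0.32. Hsp90aa1 rose by 2.00 in adipose tissue and 4.44 in arch and so missed the criterion of equal shifts. The mitochondrial chaperonin pair Hspe1 and Hspd1 were called higher but unequal, as 2 of 11 tested members of their list (18.2%, against 3.67% of all genes). Cct4 was the only 1 of 8 subunits of the cytosolic TRiC chaperonin that rose (12.5%).

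Genes of the endoplasmic reticulum stress response rose in a smaller number. Of 29 tested members 5 rose (17.2%, against 3.67%; 4 to 8 over the alternative fits) and 0 fell, with a median of 0.763, and Hspa5, Eif2ak3, Dnajb9 and Slc3a2 rose alike. Hspa5, the main chaperone of the endoplasmic reticulum, measured 5109, 2824, 4789 and 5261 in the thymus and 7909 to 22690 outside, with a median of 13970. It rose by 1.62 ± 0.26 (adjusted p = 0.00046). Eif2ak3, the sensor kinase PERK, measured 613, 412, 1037 and 617 in the thymus and 1826 to 9311 outside, and rose by 2.75 ± 0.41 (adjusted p = 0.00023). Slc3a2, the heavy chain of amino acid transporters, rose by 1.77 ± 0.26 (adjusted p = 0.000175). Atf4, the transcription factor of the integrated stress response, was called higher by 1.61 ± 0.34 with overlapping pools.

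Death, growth arrest, glucocorticoid and clock genes gave a few large changes within lists that mostly did not pass. Bcl2l11 encodes BIM, which promotes apoptosis (chr2:128126038-128162547). It measured 2756, 1681, 377 and 1141 in the thymus pools and 14710 to 24380 outside, with a median of 18890, and rose by 3.98 ± 0.35 (adjusted p = 3.43e-07). Bcl2l1, which encodes the protective BCL-XL, moved the other way. Its thymus values of 5132, 5704, 5324 and 7192 all lay above the extrathymic range of 774 to 3064, and it fell by 1.58 on the log2 scale (SE 0.33, adjusted p = 0.00652). These were the only 2 of 26 tested Bcl2 family and death genes that passed (7.69%, against 5.01% of all genes).

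Of 24 tested growth arrest and p53 target genes 5 rose (Cdkn1a, Cdkn1b, Tob1, Gadd45b and Trp53inp2) and 2 fell (Cdkn2d and Trp53inp1). Together the called members were 29.2% of the list, against 5.01% of all tested genes. The number that rose ranged from 1, with edgeR, to 6 over the alternative fits, and edgeR did not call Trp53inp2 (adjusted p = 0.227). Cdkn1a, the cell cycle inhibitor p21, measured 0.566, 0, 0 and 125 in the thymus and 257 to 4727 outside. It rose by 5.17 ± 0.85 (adjusted p = 0.000671), but edgeR did not call it (adjusted p = 0.0641). Trp53inp1, a p53 target, fell by 1.41 (SE 0.30, adjusted p = 0.00642). Of 21 tested glucocorticoid response genes 5 rose (23.8%, against 3.67% of all genes) and 0 fell. The list median was 0.00213, so the called genes were a minority of the list. They were Tsc22d3, Per1, Rgs2, Dusp1 and Bcl2l11, of which the last 4 are also members of other lists here. Tsc22d3, which encodes the protein GILZ, rose by 1.86 ± 0.25 (adjusted p = 6.58e-05). Per1, a clock gene that is also induced by cAMP and glucocorticoids (chr11:69095217-69109960), measured 35.1, 0, 0 and 0.825 in the thymus and 835 to 4768 outside, with a median of 2166. It rose by 6.46 ± 0.64 (adjusted p = 2.17e-06). Of 14 tested clock genes 42.9% were called, against 5.01% of all tested genes. In that list 5 rose (2 to 6 over the alternative fits) and 1 fell, with a median of 1.37. Per1 was 1 of the 2 that rose alike. Per1 and Rora, both in that list, were tested through the extrathymic pools alone, so their p-values are no support.

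Signalling lists gave few calls. Of 24 tested NF-kB genes 2 rose (8.33%, against 3.67% of all genes), Tnfaip3 and Bcl10. The Bcl10 call was lost without thymus pool 1, 2 or 4, adipose pool 3, or arch pool 1 or 3 (adjusted p 0.0504 to 0.152). Tnfaip3, a ubiquitin-editing inhibitor of NF-kB, measured 2060, 1500, 2511 and 833 in the thymus and 4585 to 7538 outside, and rose by 2.02 ± 0.27 (adjusted p = 8.47e-05). Of 26 JAK, STAT and SOCS genes Stat3 and Stat5a rose and Il21r fell (11.5% called, against 5.01% of all genes). Il21r, the interleukin 21 receptor, measured 6096, 5205, 5047 and 4764 in the thymus and 288 to 3017 outside, and fell by 2.29 (SE 0.49, adjusted p = 0.00717), with unequal shifts of -1.50 in adipose tissue and -3.07 in arch. Of 12 tested effector and memory genes Ctla4 and Rgs1 rose (16.7%, against 3.67% of all genes). Rgs1 was tested through the extrathymic pools alone, so its p-value is no support. Ctla4, an inhibitory receptor of activated T cells, measured 0, 109, 0 and 0 in the thymus and 401 to 2557 outside, and rose by 5.11 ± 0.79 (adjusted p = 0.00033), with no call by edgeR (adjusted p = 0.0765). Of 12 mature and effector T cell markers 6 were in the table, with sums of 27.9 to 137 CPM in the thymus and 4.34 to 204 CPM outside, and their part in the Ctla4 values was not tested.

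Genes of polyamine and sterol synthesis were among those that rose. Odc1, the rate-limiting enzyme of polyamine synthesis, measured 753, 743, 712 and 1744 in the thymus and 5949 to 16300 outside, with a median of 10900. It rose by 3.53 ± 0.30 (adjusted p = 2.66e-07). With Azin1 and Sat1 it was 1 of the 3 members that rose among 10 tested polyamine genes (30%, against 3.67% of all genes). Neither Azin1 nor Sat1 was called by edgeR (adjusted p = 0.0889 and 0.0749), and Azin1 kept its call in 3 of the 12 fits without 1 pool and lost it with the replicate block (adjusted p = 0.0637). Insig1, which retains the sterol sensor in the endoplasmic reticulum, measured 303, 934, 87.4 and 637 in the thymus and 2051 to 5417 outside, and rose by 3.14 ± 0.49 (adjusted p = 0.000359). Of 27 tested sterol genes 4 rose (14.8%, against 3.67% of all genes), among them Insig1 and Idi1, and 0 fell. Over the alternative fits 1 to 5 rose. The groups overlapped for Idi1, which was not called by edgeR (adjusted p = 0.288), DESeq2 or limma-voom, nor without thymus pool 3 or 4.

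Among 31 lipid handling genes 4 rose (2 to 5 over the alternative fits) and 2 fell. Together the called members were 19.4% of the list, against 5.01% of all tested genes. Plin2, a coat protein of lipid droplets, measured 1263, 1383, 3379 and 2174 in the thymus and 4116 to 13740 outside, and rose by 2.18 ± 0.34 (adjusted p = 0.000359), with site shifts of 2.14 and 2.22. Acsl3, a long-chain acyl-CoA synthetase, rose by 2.97 ± 0.41 (adjusted p = 0.000109), with all 4 adipose pools (4467 to 8418) above all 4 arch pools (1558 to 3492). The site difference of -1.20 was not called (adjusted p = 0.341). Ucp2, a mitochondrial carrier, fell by 0.95 (SE 0.19, adjusted p = 0.00519). Adipocyte markers, with 4 of 10 in the table, summed to 0 to 12.8 CPM in the thymus and 0 to 182 CPM outside, the highest in adipose pool 1; their part in the lipid genes was not tested, and Plin2 and Acsl3 stayed called without that pool and the 2 arch pools.

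Of 30 tested oxidative stress and iron genes 5 rose (16.7%, against 3.67% of all genes) and 0 fell. All 5 rose alike, and 3 to 6 rose over the alternative fits. Prdx6, a peroxiredoxin, measured 8185, 7927, 8645 and 4927 in the thymus and 22060 to 40940 outside, with a median of 28010. It rose by 2.01 ± 0.19 (adjusted p = 1.5e-06). Ftl1 and Fth1, the ferritin chains, and Sod1 rose by 0.88, 0.61 and 0.92. Hmox1, heme oxygenase 1, had 1 thymus read and ranged from 53.9 to 8545 outside, the highest in arch pool 4, where fibroblast markers were also highest. Its call was lost without the 3 pools with raised markers of other cells (log2 change 3.52, adjusted p = 0.0522). Hmox1, counted among the 5, was tested through the extrathymic pools alone, so its p-value is no support. Of 11 tested tubulin genes Tubb2a and Tubb2b rose (18.2%, against 3.67% of all genes). Tubb2a, a beta tubulin whose CRE is printed above, measured 1438, 1940, 2344 and 4375 in the thymus and 15350 to 26210 outside, and rose by 3.12 ± 0.24 (adjusted p = 8.32e-08). Tubb2b rose by 2.49 ± 0.47 (adjusted p = 0.00263). Their coding sequences are close, so short reads may be split between the pair.

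Other large increases lay outside the lists. Sgip1, a regulator of endocytosis, had 1 read in thymus pool 3 and none in the other 3, and measured 681 to 3694 outside, a ratio of 6277 with a 95% counting interval of 1130 to 248000. Snx18, a sorting nexin, measured 0.566, 265, 17.5 and 212 in the thymus and 5045 to 11320 outside, and rose by 6.52 ± 0.56 (adjusted p = 2.66e-07). Tex2, a lipid-binding protein of the endoplasmic reticulum, measured 71.9, 0, 0 and 176 in the thymus and 2112 to 6839 outside, and rose by 6.33 ± 0.60 (adjusted p = 1.17e-06). In these 3 genes the adipose and arch pools overlapped. Mpzl2, an adhesion protein described in thymic epithelium, had no thymus read and 575 to 2794 outside, at least 476-fold higher (adjusted p = 3.6e-05). Thymic epithelium markers, with 5 of 10 in the table, summed to 423 to 725 CPM in the thymus and 488 to 1000 CPM outside. Without Ctsl, the most abundant, the mean sum was 28.2 CPM in the thymus and 8.96 CPM outside, and their part in the Mpzl2 values was not tested. Grn, which encodes progranulin, a gene highly expressed in myeloid cells, measured 6.23, 0, 0 and 0 in the thymus and 378 to 4285 outside, and rose by 5.60 ± 0.80 (adjusted p = 0.000157). Its highest pools, arch pool 4 and adipose pool 1 (2166), were among those with raised markers of other cells. The fit without the pools with raised markers also called Grn. The part of other cells in the Grn values was not tested. Sgip1, Mpzl2 and Grn were tested through the extrathymic pools alone, so their p-values are no support.

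After Crem, the smallest p-values among genes that rose alike belonged to Morf4l2, Rnf125, Fosl2 and Gramd3. Morf4l2, a chromatin-associated protein (chrX:136732942-136743690), measured 4977, 3025, 2179 and 1488 in the thymus and 26920 to 45170 outside, with a median of 36460. It rose by 3.77 ± 0.24 (adjusted p = 7.62e-09), by 3.76 in adipose tissue and 3.79 in arch. Rnf125, a ubiquitin ligase, measured 245, 258, 488 and 594 in the thymus and 4969 to 12290 outside, and rose by 4.42 ± 0.31 (adjusted p = 3.45e-08). Gramd3, a lipid-binding GRAM domain protein, measured 3427, 3515, 1829 and 2074 in the thymus and 14500 to 45180 outside, and rose by 3.57 ± 0.27 (adjusted p = 5.85e-08). These 3 genes and Crem kept their call in all 12 fits without 1 pool. Fosl2 did so too, but it was tested through the extrathymic pools alone, so its p-value and calls are no support.

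**Figure D2:**
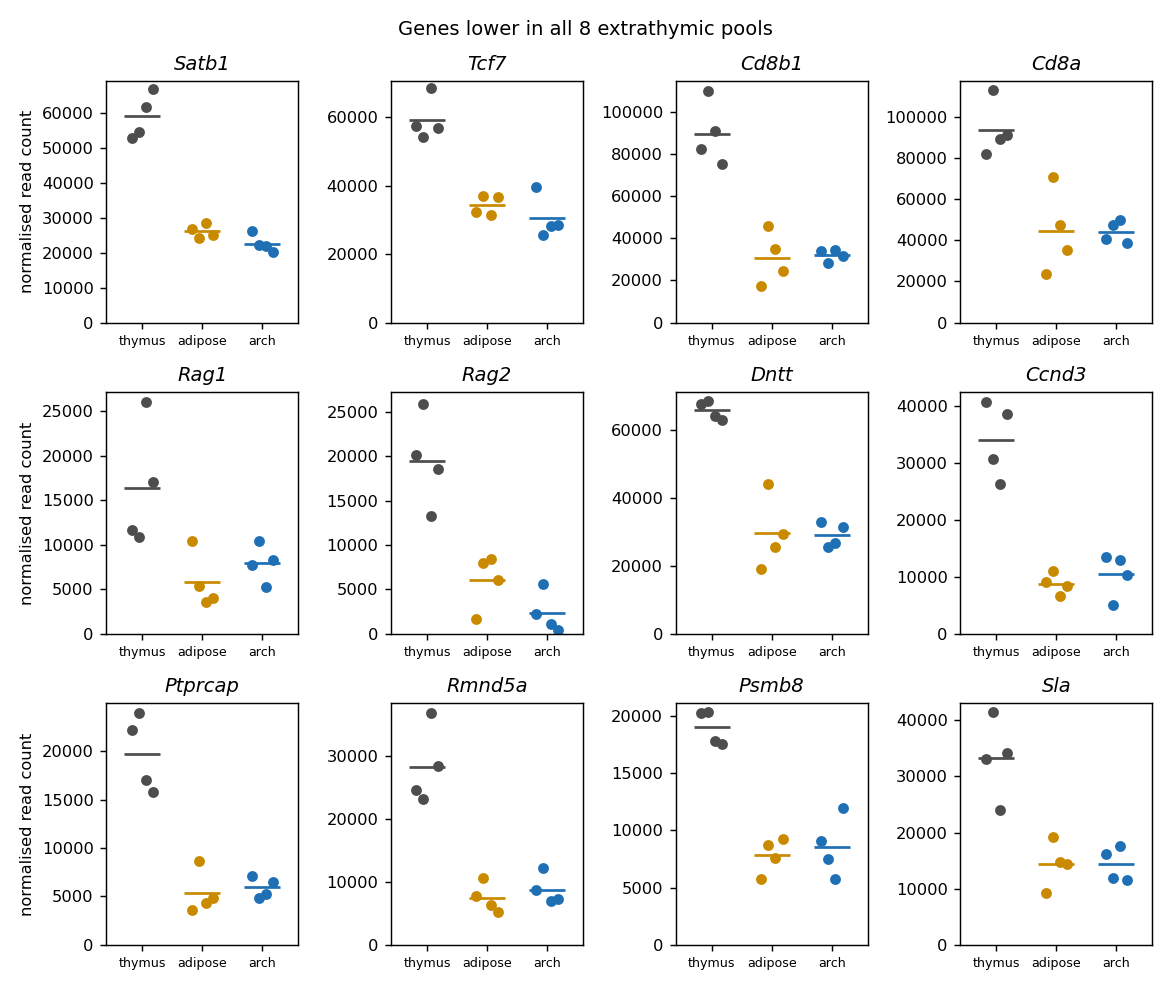
Normalised read counts of 12 genes that fell alike, one point per pool with a line at each group mean, on linear axes that start at 0. In every panel the 4 thymus points lie above the 8 extrathymic points, while the genes stay well detected in most extrathymic pools.

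The downward side was led by genes of thymocyte identity. Of 42 tested identity genes 15 fell and 1 rose (38.1% called, against 5.01% of all tested genes), and 11 of the 15 fell alike. The list median was -0.849 against -0.126 over all genes. Between 9 and 18 members fell over the alternative fits. Satb1, a chromatin organiser of thymocytes (chr17:51736187-51833290), measured 52840, 54370, 61780 and 66740 in the thymus and 20220 to 28570 outside, with a median of 24600. It fell by 1.28 (SE 0.14, adjusted p = 7.24e-06), by 1.17 in adipose tissue and 1.38 in arch. Tcf7, the transcription factor TCF-1, measured 57500, 54320, 68450 and 56770 in the thymus and 25650 to 39680 outside, and fell by 0.88 (SE 0.15, adjusted p = 0.000699). For both genes the values within each group were close, and the gap between groups exceeded the spread inside either. Bcl11b and Lef1 fell by 1.65 and 1.13 (adjusted p = 0.00385 and 0.0238).

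The coreceptor genes fell although their proteins were required by the sort. Cd8b1 (chr6:71322788-71337494) measured 82330, 110200, 90860 and 75260 in the thymus and 17300 to 46130 outside, with a median of 32940, and fell by 1.54 (SE 0.20, adjusted p = 5.46e-05). Cd8a measured 81860 to 113100 in the thymus and 23850 to 70740 outside, and fell by 1.13 (SE 0.21, adjusted p = 0.00174). In both genes adipose pool 1 was the lowest and adipose pool 2 the highest of the extrathymic pools. Adipose pool 1 was also the pool with the highest B cell sum, and both genes stayed called without it and the 2 arch pools with raised markers. The part of other cells in these values was not tested. Cd4 measured 16510, 16600, 16360 and 22770 in the thymus and 5191 to 19710 outside, and fell by 0.99 (SE 0.27, adjusted p = 0.0345). Its groups overlapped through adipose pool 4, and the call was lost without any one of thymus pools 1 to 4, adipose pool 3 or arch pool 3 (adjusted p 0.0573 to 0.139). Thy1, Cd2 and Ly6d, other surface proteins of thymocytes, fell alike by 1.60, 1.67 and 1.00. Cd24a, a surface protein of immature thymocytes, was the 1 identity gene that rose. It measured 9545, 17280, 7865 and 9517 in the thymus and 32950 to 76520 outside, with a median of 49260, and rose by 2.26 ± 0.23 (adjusted p = 2.91e-06).

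Receptor gene recombination fell through 3 of 13 tested genes (23.1%, against 1.34% of all genes), all alike at both sites, and 0 rose. Dntt (chr19:41029275-41059525) measured 67710, 68710, 64250 and 63010 in the thymus and 19210 to 44130 outside, with a median of 28010. It fell by 1.20 (SE 0.17, adjusted p = 0.000169), by 1.22 in adipose tissue and 1.18 in arch. Rag2 (chr2:101624718-101632529) measured 20180, 25980, 13260 and 18620 in the thymus, 1629 to 8425 in adipose tissue and 393 to 5572 in arch. It fell by 2.75 (SE 0.61, adjusted p = 0.00947), and the site difference of -1.70 was not called (adjusted p = 0.383). Rag1 measured 11630, 10870, 26000 and 17070 in the thymus and 3507 to 10430 outside, and fell by 1.26 (SE 0.31, adjusted p = 0.0181). Its lowest thymus pool and highest extrathymic pool were close, and the call was lost without thymus pool 3 or 4 (adjusted p = 0.102 and 0.066). Ptcra, the pre-T cell receptor alpha chain, had a change of -1.73 ± 0.52 that did not pass (adjusted p = 0.0652), with 1677 to 2916 in the thymus and 198 to 1348 outside.

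Of 30 tested genes of the CD3 complex and proximal signalling 6 fell and 3 rose (30% called, against 5.01% of all tested genes). Over the alternative fits 3 to 10 fell. Sla, an adaptor that promotes receptor turnover, measured 33150, 41430, 24100 and 34240 in the thymus and 9199 to 19190 outside, and fell by 1.22 (SE 0.20, adjusted p = 0.000671). Lcp2, the adaptor SLP-76, and Rasgrp1, a Ras activator, fell alike by 1.34 and 1.18 (adjusted p = 0.00385 and 0.00838). The kinases Csk and Lck fell by 1.55 and 0.75 (adjusted p = 0.0326 and 0.038), neither of them called by edgeR (adjusted p = 0.0559 and 0.0925). Cd5, a negative regulator of receptor signals, was called lower with overlapping pools, and arch pool 4 at 5816 lay inside the thymus range. Sla2, a paralogue of Sla, was among the 3 that rose. It measured 7569, 9432, 11180 and 8509 in the thymus and 22980 to 45930 outside, and rose by 1.78 ± 0.21 (adjusted p = 1.39e-05). Cd3e, a chain of the receptor complex, had a change of -0.41 ± 0.18 that did not pass (adjusted p = 0.224).

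Homing and adhesion genes were mixed. Of 27 tested members 4 fell (1 to 8 over the alternative fits), among them Coro1a, and 2 rose (Klf2 and Selplg), neither of the last 2 alike. Together the called members were 22.2% of the list, against 5.01% of all tested genes. Coro1a, an actin regulator required for egress, fell by 1.14 (SE 0.25, adjusted p = 0.0076).

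Outside the lists the smallest p-values on the downward side belonged to Rmnd5a, Ptprcap and Ccnd3. Ccnd3, the D-type cyclin of thymocyte proliferation, measured 40730, 30680, 26360 and 38750 in the thymus and 5020 to 13460 outside, with a median of 9736. It fell by 1.87 (SE 0.24, adjusted p = 4.62e-05), by 1.95 in adipose tissue and 1.78 in arch. Ptprcap, a protein associated with CD45, measured 22210, 23950, 17070 and 15750 in the thymus and 3619 to 8686 outside, and fell by 1.83 (SE 0.23, adjusted p = 4.49e-05). Rmnd5a, a subunit of a ubiquitin ligase, measured 24580, 23120, 36720 and 28420 in the thymus and 5241 to 12170 outside, and fell by 1.82 (SE 0.22, adjusted p = 2.21e-05). In these genes the highest extrathymic pool stayed below the lowest thymus pool by a wide margin. Psmb8, a subunit of the immunoproteasome, fell by 1.25 (SE 0.20, adjusted p = 0.000576), and Ldhb, a lactate dehydrogenase chain, by 0.91 (SE 0.15, adjusted p = 0.000791).

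The 10 largest decreases among genes that fell alike, with a thymus mean of at least 200, were less steady than these. Apart from Rag2 and Krcc1, no value in the thymus pools exceeded 1647. Tmprss4 measured 262, 245, 121 and 192 in the thymus and 0 in all 8 extrathymic pools, at least 63.9-fold lower against a floor of 3 reads (adjusted p = 0.00424). Gtpbp8, a GTP-binding protein, measured 234, 352, 106 and 456 in the thymus and 0 in 7 of the 8 extrathymic pools, with 42.4 in arch pool 1 (adjusted p = 0.00695). Tmprss4, Gtpbp8 and Tmem151b reached the minimum of 100 in the thymus pools alone. They could be tested only because they are high there, and their p-values are no support. Krcc1 measured 1694 to 3046 in the thymus and 0 to 1045 outside. Of the 10, edgeR called only Tmprss4 and Rag2. The others, beside Gtpbp8 and Krcc1, were Tnfaip8l2, Ankrd13d, Art1, Slc25a22, Tmem151b and Ccdc125, with changes from -3.98 to -3.17 and adjusted p from 0.0167 to 0.0458.

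**Figure D3:**
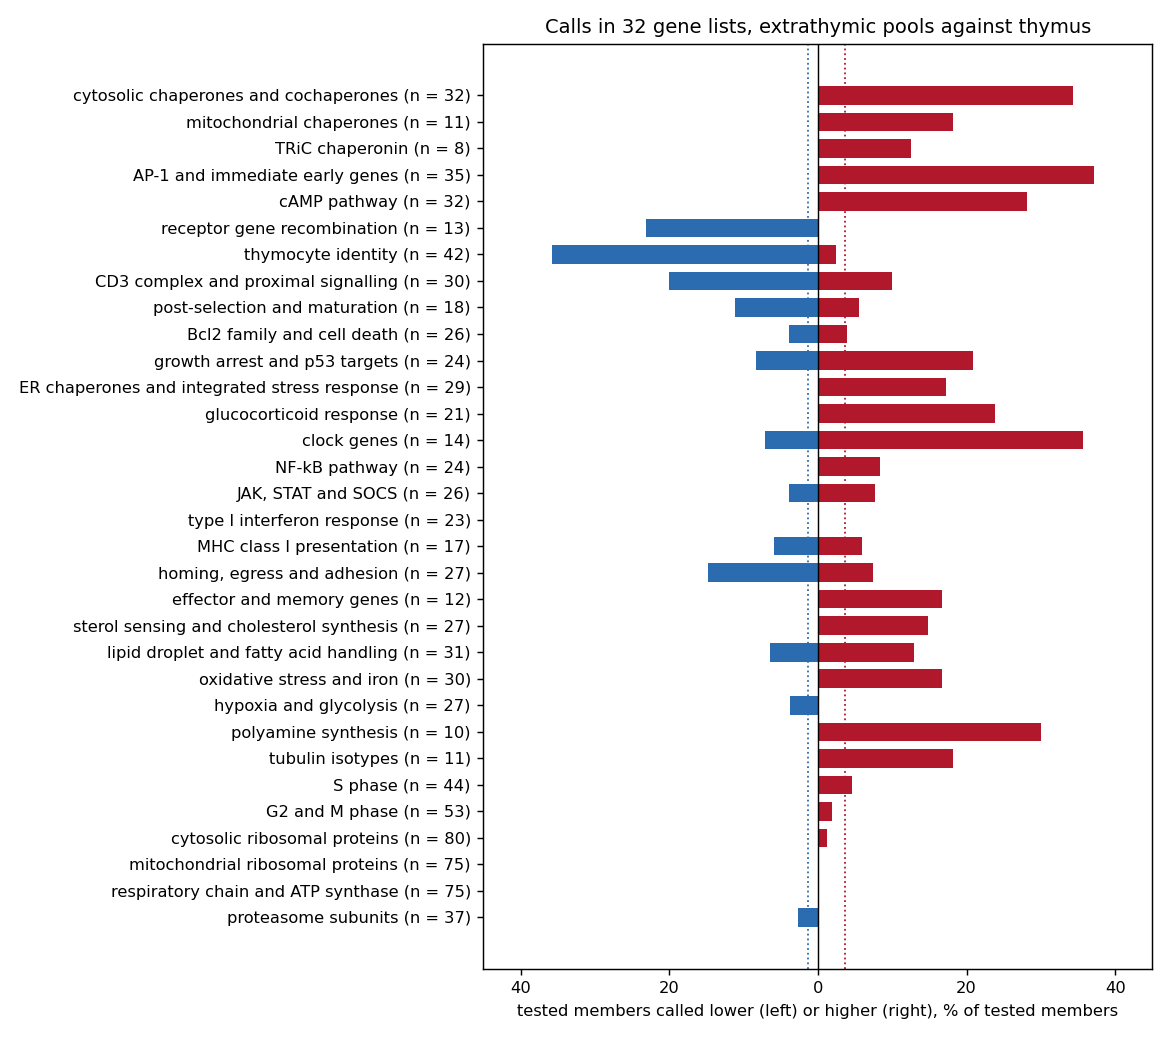
Percent of the tested members of each of 32 gene lists that were called higher or lower outside the thymus, with dotted lines at 3.67% and 1.34%, the shares over all 9106 tested genes. The AP-1 list reaches 37.1% on the higher side with no lower call, and the thymocyte identity and recombination lists have the long bars on the lower side.

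The ribosomal, respiratory chain, cell cycle, proteasome and glycolysis lists stayed near or below the background of 3.67% higher and 1.34% lower. Of 80 cytosolic ribosomal protein genes 1 rose, Rpl15, and 0 fell, while 13 were higher and 0 lower at an unadjusted p under 0.05. DESeq2 called 4 of the 80 higher and edgeR 1. The share of all tested genes at an unadjusted p under 0.05 is not given here, so the unadjusted counts in this paragraph have no background beside them. Among 75 mitochondrial ribosomal proteins and 75 respiratory chain genes 0 passed by limma and 0 by edgeR, with 6 members of each at an unadjusted p under 0.05. Of 44 S phase genes Mcm4 and Slbp rose, and of 53 G2 and M phase genes only Ube2s rose. Of 37 proteasome genes only Psmb8 passed, and of 27 glycolysis genes only Ldhb. Of the 23 tested type I interferon response genes 0 passed by limma and 0 by edgeR. At an unadjusted p under 0.05, 1 of them was higher and 4 were lower. The list median was -0.89, against -0.126 over all genes. Irf3, a transcription factor of that response, measured 3414, 1817, 2818 and 2985 in the thymus and 316 to 2138 outside, a change of -1.47 ± 0.46 (adjusted p = 0.0738). Of 17 tested MHC class I genes H2-K1 was called higher, with overlapping pools, and Psmb8 lower (11.8% called, against 5.01% of all genes). H2-K1 shares sequence with H2-D1, so reads may be split between them, and its call was lost without 5 of the 12 pools in turn.

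**Figure D4:**
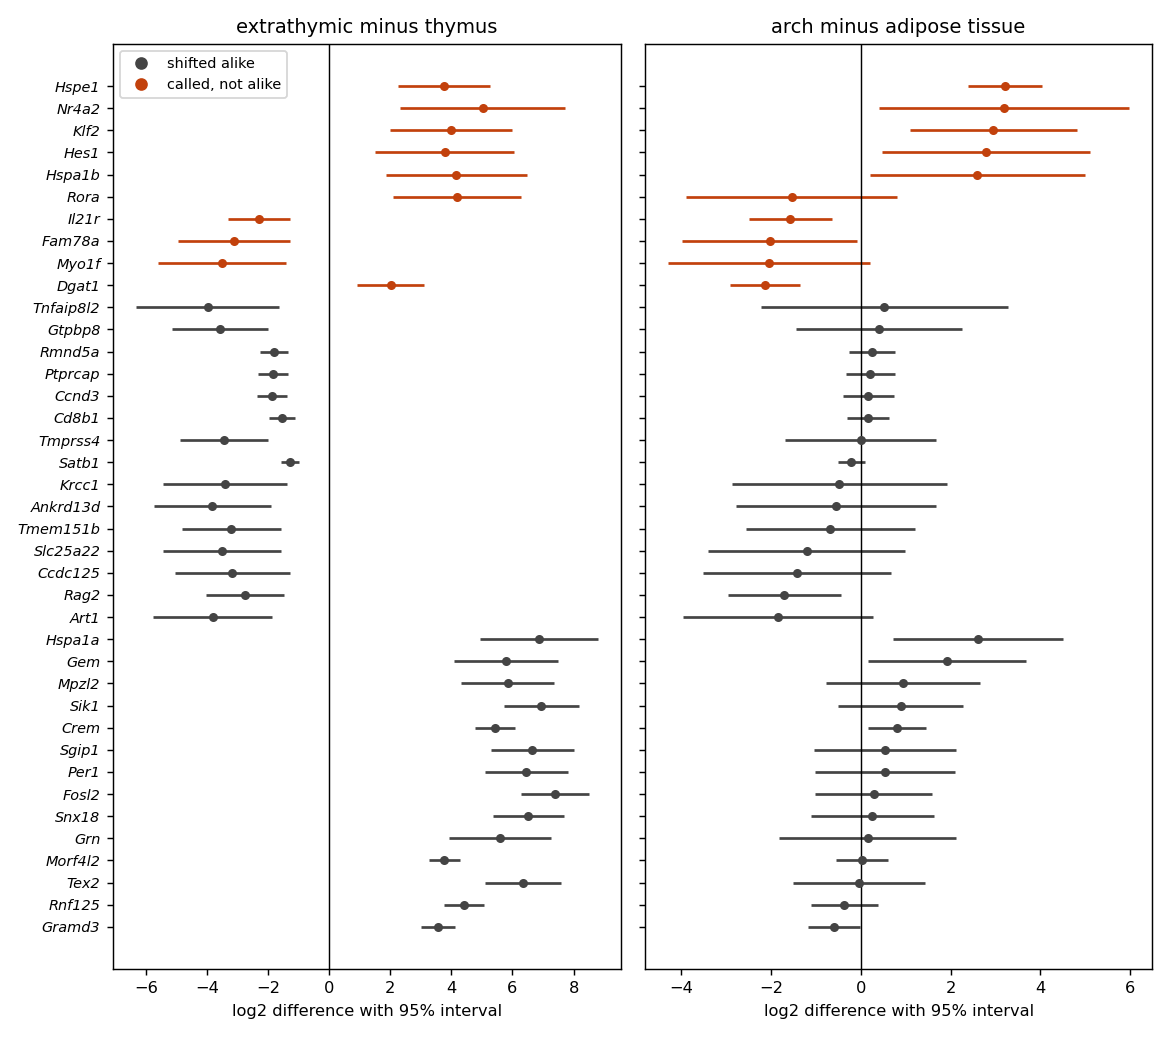
Log2 change outside the thymus (left) and arch minus adipose tissue difference (right) of the genes with the largest changes or smallest p among those shifted alike, and of the 5 called genes with the largest site difference each way among those that were not, each with its 95% interval, grey for genes shifted alike and orange for called genes that were not. Most grey intervals on the right include 0, and of the 10 orange genes shown Hspe1 and Dgat1 had a site difference that passed adjustment (3.22 and -2.14).

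The second question was how alike the sites were. Of the 228 genes that rose alike, 201 had a site difference under 1 log2 unit, but only 74 had a 95% interval inside that bound, so equality to that precision was shown for a minority. The interval excluded 0 for 46 of them, and 1 (Hsph1) passed adjustment over all genes. Of the 94 that fell alike, 88 were under 1 log2 unit, 42 had the interval inside it, 8 excluded 0 and 0 passed adjustment by limma. The criterion of a like shift keeps the difference within 1 log2 unit wherever the larger shift is at most 2. The counts under 1 log2 unit, and those of intervals inside it, are therefore partly set by that criterion and are no test of likeness. Over all 9106 genes arch and adipose tissue differed in 16 (0.176%), 9 higher in arch and 7 lower, while 320 and 634 had an unadjusted p under 0.05. The 9 were Hsp90aa1, Hspe1, Id3, Hspd1, Dnajb1, Hspa8, Hsph1, Dnaja1 and Hsp90ab1, of which all but Id3 encode chaperones. The 7 were Dgat1, Gpr180, Txk, Ndrg3, Selplg, Bambi-ps1 and Neil1. With 4 pools a side, the count ranged from 2 to 14 when 1 pool was left out.

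Of the genes called higher that were not alike, 99 of 106 overlapped between groups and 7 were unequal in size. Hspe1, the mitochondrial cochaperonin, measured 2339, 1127, 1341 and 1703 in the thymus, 3899 to 15760 in adipose tissue and 35800 to 100000 in arch. It rose by 2.15 in adipose tissue and 5.36 in arch, and the site difference was 3.22 (adjusted p = 0.000813). Hspd1, its partner, had shifts of 1.46 and 3.66 and a site difference of 2.20 (adjusted p = 0.0144). Neither Hspe1 nor Hspd1 was called against thymus by limma-voom (adjusted p = 0.155 and 0.0734). Klf2, a transcription factor of T cell egress, measured 81.0, 137, 0 and 86.6 in the thymus, 71.2 to 1297 in adipose tissue and 3057 to 3652 in arch. The 4 arch pools were close together, adipose pool 2 lay inside the thymus range, and the site difference of 2.95 did not pass (adjusted p = 0.305). The Klf2 call itself was lost without thymus pool 3 (adjusted p = 0.0649) or without the 3 pools with raised markers (adjusted p = 0.0875).

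Selplg and Dgat1 were larger in adipose tissue. Selplg, the P-selectin ligand (chr5:113818536-113832644), measured 12400, 17450, 13580 and 16680 in the thymus, 47710 to 81430 in adipose tissue and 21790 to 40470 in arch. The 3 tissues did not overlap, and the site difference was -1.17 (adjusted p = 0.0277). Dgat1, the enzyme that completes triglyceride synthesis, measured 890, 978, 1760 and 1208 in the thymus, 6765 to 14810 in adipose tissue and 1282 to 3839 in arch, with a site difference of -2.14 (adjusted p = 0.0236). Arch pool 2 lay inside the thymus range of Dgat1, and its call against thymus was lost without thymus pool 1, 2 or 4, or adipose pool 1 or 3. Rora, a nuclear receptor, had no thymus read, 317 to 1107 in adipose tissue, and in arch 0 in pool 2 and 324 to 624 in the other 3. It was at least 192-fold higher outside than the floor, and its call was lost without thymus pool 4 (adjusted p = 0.0503). Rora is among the innate lymphoid markers, whose sum was 83.9 to 95.1 CPM in the thymus and 25.3 to 169 CPM outside with Gzma, and whose part in this result was not tested. Without Gzma, the most abundant of those markers, the mean sum was 0.0258 CPM in the thymus and 28.7 CPM outside, of which Rora itself was 25.2 CPM.

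**Figure D5:**
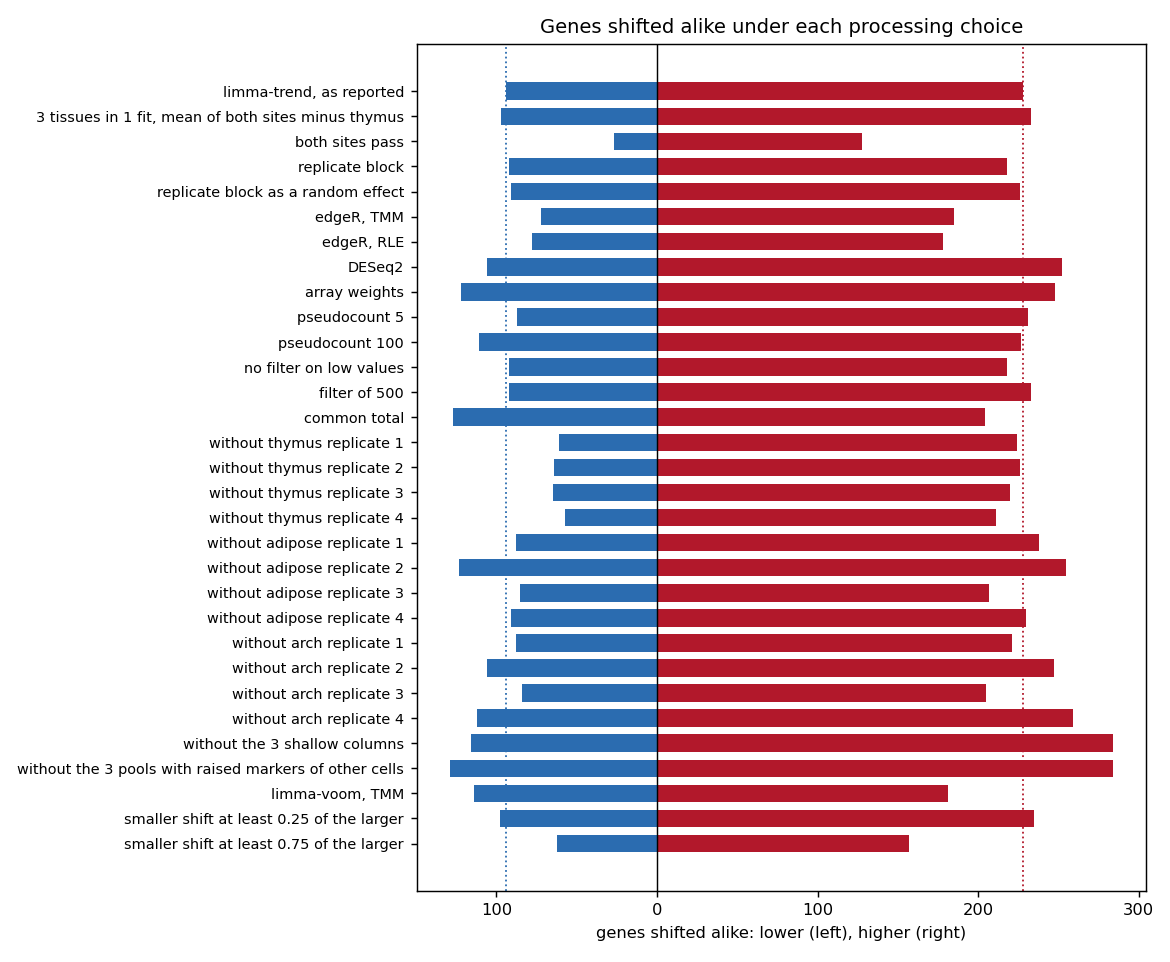
Number of genes that rose alike (bars to the right) and fell alike (bars to the left) under each alternative setting, with dotted lines at the reported 228 and 94. Requiring each site to pass on its own gives 128 and 27, the lowest counts, and the left bars shorten to between 57 and 65 when any thymus pool is left out.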

How the data were processed

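CD4+CD8b+TCR- cells of 12 pools (4 per tissue, from 26 libraries) were profiled by bulk RNA sequencing with 50-base single-end reads. Per the submitters' processing notes FastQC 0.11.5, STAR 2.6.0c and the GRCm38 build were used. The sources used here do not give how reads were counted, or on which annotation. The deposited table holds 13765 genes as a normalised signal, read counts divided by 1 size factor per column, and 100% of its 120369 values above 0 were whole multiples of 1 read's worth within 0.01, so reads were recovered. The table was taken as given by the authors, with its scaling. The 9106 genes that reached 100 in 4 or more columns were tested (they hold 98.1% to 99.6% of each column's total), on log2(value + 20), where 20 is 0.983 CPM and 100 is 4.91 CPM in the median column. A fold change on this scale understates the change of low genes. limma 3.58.1 (R 4.3.3) with trend compared the 8 extrathymic with the 4 thymus pools, and a fit of 3 tissues gave the site shifts and the arch against adipose comparison. Adjusted p-values are limma's over all 9106 genes unless edgeR (4.0.16, quasi-likelihood on the recovered reads), limma-voom or DESeq2 1.42.0 is named; these were alternatives. Exact permutation tests were two-sided.

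The fitting code was tested on simulated data. The gene lists, the rule for named genes and the criteria of a like shift were chosen with earlier results of these data known. The rule named, among genes shifted alike, the 10 largest and the 5 with the smallest p per direction with a mean of at least 200 in the higher group; the 5 called genes with the largest site difference each way; up to 3 genes per list; and 12 identity genes. Genes outside it (Fos, Nr4a1, Zfand2a, S1pr2, Ppp1r15a, Tsc22d3, Hsp90aa1, Bcl11b, Lcp2 and other called list members given with a value) were chosen after their values were seen. Coordinates are from GENCODE M21 on GRCm38. Intervals and floors of 3 reads cover counting error only, since no molecular identifiers are named in the labels. Antisense and overlapping genes may share reads, since the counting is not stated to use strand. The libraries of a pool were not analysed separately. Some genes are not reported here.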

Additional observations from a re-analysis of the deposited data

Results flagged for a closer look

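The test of a far-off value covered 282 groups of pools, of the named genes, the marker sums and the depth measures. It marked 45 of them, 16%. A group was marked when the gap of its highest or lowest pool to the nearest other, divided by the range, exceeded 0.829 for 4 pools or 0.526 for 8. These limits mark about 1 in 20 by chance only for independent, normally distributed values. The values here were untransformed, some groups held pools without a read, and the groups of 8 mixed adipose and arch pools. The 16% therefore cannot show whether far-off values were more frequent than by chance. No explanation was tested for any marked group.

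In the thymus group, high pools were marked for Cd4 (22770), Cdkn1a (125), Crem (663), Ctla4 (109), Fosl2 (1.70), Grn (6.23), H2-D1 (7393), Hes1 (409), Hmox1 (0.566), Nr1d2 (1140), Nr4a2 (546), Odc1 (1744), Per1 (35.1), Rplp0 (60570), Sgip1 (1.46), Tuba4a (3518) and Ccdc125 (982). For Fosl2, Grn, Hmox1, Nr4a2, Hes1, Ctla4 and Sgip1 the other 3 thymus pools were at 0, so the mark rests on a single pool with reads.

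In the extrathymic groups, high pools were marked for Art1 (283), Cd4 (19710), Cd5 (5816), Cdkn1a (4727), Crem (47580), Grn (4285), Gtpbp8 (42.4), Hmox1 (8545), Id2 (4392), Lonp1 (1171), Rps2 (37480), Slc25a22 (230) and Tmem151b (96.5). Atp5h (15520) and Tnfaip3 (4585, the lowest of the 8 pools) were also marked. Crem was highest in arch pool 2, and Cdkn1a, Grn, Hmox1 and Id2 in arch pool 4, the pool with the highest fibroblast sum.

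Among the marker sums, arch pool 4 was marked for fibroblasts (6070 CPM), arch pool 2 for smooth muscle (1930), macrophages (980), neutrophils (38.7) and cardiomyocytes (0.0864), arch pool 1 for mast cells (14.9), and adipose pool 1 for B cells (1510), endothelium (341) and adipocytes (182). Adipose pool 3 was marked for mesothelium (0.0335), thymus pool 4 for adipocytes (12.8) and thymus pool 3, as the lowest, for innate lymphoid cells (83.9). Adipose pool 1 was also marked for the number of genes detected (11894).

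The shift outside the thymus differed between the sites, by the test of the arch minus adipose difference over all genes in limma, for 5 named genes. Arch was higher for Hspe1 by 3.22 (adjusted p = 0.000813), Hsph1 by 2.31 (adjusted p = 0.0276) and Hspd1 by 2.20 (adjusted p = 0.0144). Arch was lower for Dgat1, by -2.14 (adjusted p = 0.0236), and for Selplg, by -1.17 (adjusted p = 0.0277). In all 5 every pool of the higher site lay above every pool of the other.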

How the results depend on the processing

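Of 96 called named genes, 51 kept their call under all 27 alternatives (Tmprss4, tested in fewer, kept it in those), 316 of 2566 values lost it and 0 reversed. Requiring each site to pass alone gave 134 higher and 27 lower genes, of which 128 and 27 shifted alike. Genes called lower numbered 79 with edgeR, 243 with array weights and 219 with limma-voom (chosen after seeing the data), and 62 fell alike when the smaller shift had to reach 0.75 of the larger. Arch against adipose tissue gave 8 genes with edgeR. With 1 pool left out in turn, called genes ranged from 243 to 359 higher and 62 to 156 lower, genes shifted alike from 205 to 259 higher and 57 to 123 lower, and site differences from 2 to 14. The lower counts fell most without a thymus pool (65, 71, 72 and 62 called without pools 1 to 4). The site count was 2 without adipose pool 4, 3 without arch pool 2, 5 without adipose pool 2 or arch pool 4 and 9 without adipose pool 3. These fits have fewer pools; the other causes were not tested. Without the 3 pools with the fewest reads per library (thymus 3, arch 2 and arch 4) 317 and 126 genes were called, and without the 3 pools with raised markers of other cells 323 and 153.

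Same-numbered pools did not deviate together (correlations -0.0316 to 0.0756 over 12 pairs, and -0.0875 to 0.0731 for other pairs). With the replicate block 315 genes were higher and 118 lower, 218 and 92 shifted alike, and 12 differed between sites.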
